A study of Mus musculus with 6 samples.

Results

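The genes described here encode the pro-apoptotic side of the BCL2 family: the BH3-only proteins Bbc3, Bcl2l11, Pmaip1, Bid, Bad, Bik, Bmf and Hrk, and the pore formers Bax and Bak1. They were chosen by gene symbol from knowledge of the family, and all 10 symbols were found, once each, among 53465 genes. RNA was sequenced from bone marrow cells of wild-type mice that had received 5.0 Gy of whole-body radiation and then saline (3 libraries) or carnosine (3 libraries), so every group was irradiated. Carnosine is a dipeptide of beta-alanine and histidine. The cells had been sorted as long-term haematopoietic stem cells, that is, as lacking lineage markers, Flk2 and CD34 and carrying Sca-1 and c-Kit. The labels give no age, sex or strain of the mice, no dose or timing of either agent, and do not name the animals or pools behind each library. What the p-values measure is thus library-to-library spread, and that may be technical.

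BCL2-family proteins decide whether the outer mitochondrial membrane stays intact. BH3-only proteins carry damage and starvation signals: they occupy the groove of the anti-apoptotic members BCL2, BCL-XL and MCL1, and some also activate BAX and BAK directly. Activated BAX and BAK then form pores that release cytochrome c, which assembles the apoptosome and switches on caspases. In irradiated blood-forming cells, p53 induces Bbc3 (the protein PUMA), Pmaip1 (NOXA) and Bax, and PUMA is a main mediator of the death of stem and progenitor cells after radiation. FOXO transcription factors, active when growth factors are scarce, induce Bcl2l11 (BIM) and Bbc3.

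In the carnosine libraries Bbc3 was lower by a factor of 3.00 and Bcl2l11 by a factor of 1.98, while Bak1 was higher by 16.8%. Levels of Pmaip1, Bax, Bid, Bad and Bmf did not pass the test, and Bik and Hrk were too low to be tested. Of the 8 tested members 1 rose and 2 fell (quasi-likelihood test of edgeR, p adjusted by Benjamini-Hochberg over 15533 genes, threshold 0.05). That is 37.5% of them, against 39.4% of all genes tested, of which 19.6% were higher and 19.8% lower (3038 and 3077 genes). A correction for GC content and transcript length changed that split to 2375 higher and 3904 lower, and limma-trend on log2(FPKM + 1) to 3387 and 2156. The libraries of the treatment groups did not overlap for the same 3 members, 37.5% of the 8, where 52.3% of all tested genes showed no overlap. The median log2 fold change was -0.012 over the 8 members and -5.03e-05 over all tested genes. The share of members that passed was thus near that of all genes, and what follows is about single members.

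Sequence before the start site is shown for Bbc3 and Bcl2l11, because they are the members that fell and because, of 14 RefSeq start windows (GRCm38.p6) for 8 members, these genes alone held a match to the FOXO motif GTAAACA. Pmaip1 and Bik had no window and were not searched. Each window ran from 250 bases before a start to 50 after it. Both strands were searched, and 3.65% of all 32851 windows held the motif. The stretches below are the 250 bases before the start, 5′ to 3′ on the gene's strand, with the FOXO match in capitals. Neither stretch overlaps an annotated exon.
Bbc3, chr7:16310011-16310260, plus strand: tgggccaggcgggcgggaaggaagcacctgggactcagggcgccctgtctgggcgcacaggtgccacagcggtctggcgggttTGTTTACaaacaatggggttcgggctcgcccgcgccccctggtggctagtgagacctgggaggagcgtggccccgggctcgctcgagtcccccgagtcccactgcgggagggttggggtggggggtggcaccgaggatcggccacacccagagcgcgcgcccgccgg
Bcl2l11, chr2:128125788-128126037, plus strand: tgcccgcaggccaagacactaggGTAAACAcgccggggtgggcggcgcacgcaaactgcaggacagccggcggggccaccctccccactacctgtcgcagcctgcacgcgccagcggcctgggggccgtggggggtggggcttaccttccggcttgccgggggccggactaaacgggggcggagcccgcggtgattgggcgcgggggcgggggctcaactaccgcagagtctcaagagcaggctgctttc
The match began at position -167 from the second of 3 Bbc3 starts and at position -227 from the first of 2 Bcl2l11 starts. It lay on the minus strand of Bbc3 and on the plus strand of Bcl2l11. The other windows of both genes held none. The AP-1 motif TGANTCA was in no member's window and in 7.81% of all windows. A p53 half-site by its consensus was in 1 window of Bax and 1 of Bmf, and in 8.36% of all windows. A match is a run of letters and was not tested for binding, and these windows leave out the rest of each gene and distant elements. The Bbc3 stretch lies inside the annotated span of Bbc3 (16308393 to 16318205).

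Bbc3 (ENSMUSG00000002083, chromosome 7, 16308393 to 16318205, plus strand, GRCm38) encodes PUMA, which binds all anti-apoptotic BCL2 proteins. Its level was 37.3, 37.5 and 35.1 CPM (each library's counts scaled to a common total with TMM factors) in saline replicates 1 to 3 and 12.2, 12.9 and 11.4 CPM in carnosine replicates 1 to 3. Every saline library lay well above every carnosine library, and libraries of a group differed by at most 1.13-fold. The log2 fold change was -1.59 ± 0.069 (SE; 95% interval -1.75 to -1.42), with an adjusted p of 4.7e-06 in edgeR. These values rest on 432 to 615 counts per saline library and 148 to 179 per carnosine library. No other member had a smaller p-value.

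Among 11410 other tested genes of at least 5 CPM, those whose levels were among the 5 most like Bbc3 over the 6 libraries included Fam110a, Ppp2ca, Rbm15b and Pcf11 (Pearson's r of log2 CPM 0.9993 to 0.9997). With groups this far apart the coefficient is set largely by the gap between treatments, and it is given as a description. These 4 fell, from a log2 fold change of -0.13 for Ppp2ca, the catalytic subunit of a protein phosphatase, to -1.80 for Fam110a.

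Bcl2l11 (ENSMUSG00000027381, chromosome 2, 128126038 to 128162547, plus strand) encodes BIM, which sets the survival of blood cells when cytokines are withdrawn. Saline replicates 1 and 2 had 45.4 and 44.4 CPM and saline replicate 3 had 29.3 CPM. The carnosine libraries had 20.5, 21.1 and 18.5 CPM, below every saline library. Saline replicate 3 lay closer to the carnosine libraries than to saline replicates 1 and 2. The log2 fold change was -0.99 ± 0.17 (SE; 95% interval -1.38 to -0.60; edgeR adjusted p = 0.0031). Without saline replicate 3 it was -1.16, with an adjusted p of 1.5e-04. On log2(FPKM + 1) values it was -0.58 and still passed (limma-trend adjusted p = 0.014), a scale on which the added 1 is large beside a level of 2.5 FPKM.

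Bid (ENSMUSG00000004446, chromosome 6, 120891930 to 120916853, minus strand) links death receptors to mitochondria, since caspase-8 cuts its protein into the active form. It was at 57.3, 24.3 and 62.1 CPM with saline and at 41.1, 81.5 and 82.0 CPM with carnosine. Each group had a single low library, saline replicate 2 and carnosine replicate 1, and carnosine replicate 1 lay below the other saline libraries, so the groups overlapped. The highest library exceeded the lowest 2.55-fold with saline and 1.998-fold with carnosine, where 1.74% and 1.77% of 11411 tested genes of at least 5 CPM were more than 2-fold apart. Its biological coefficient of variation, 0.33, stood at percentile 98.0 of all tested genes. The log2 fold change of 0.51 ± 0.38 (SE) did not pass (adjusted p = 0.33, edgeR), and its 95% interval ran from -0.39 to 1.41. Leaving out single libraries moved it between 0.19 (without saline replicate 2) and 0.77 (without carnosine replicate 1), and none of these passed. Exons of Bid share 628 bases with Bcl2l13 on the opposite strand. Bcl2l13 varied little within a group: saline 138 ± 2.4, carnosine 147 ± 2.14 CPM (SD, n = 3 each). Its carnosine libraries lay above its saline libraries, and it did not pass (log2 fold change 0.084, adjusted p = 0.052, edgeR).

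Pmaip1 (ENSMUSG00000024521, chromosome 18, 66458604 to 66465550, plus strand) encodes NOXA, a p53-induced protein that neutralises MCL1. Its 6 libraries ran from 68.4 to 71.6 CPM: 69.1, 70.6 and 71.6 CPM with saline, and 70.2, 70.6 and 68.4 CPM with carnosine. The groups lay on top of each other and the libraries of a group differed by at most 1.04-fold. The log2 fold change was -0.014 ± 0.039 (SE; adjusted p = 0.84, edgeR). Its 95% interval ran from -0.11 to 0.079, and those of Bbc3 and Bcl2l11 lie wholly below it. After a correction for GC content and transcript length, Pmaip1 passed as slightly lower (-0.14, edgeR adjusted p = 0.027, against 0.027 to 0.98 over its 17 alternatives), and with the replicate block added to that correction it did not (-0.14, adjusted p = 0.072). That correction moved the median of all tested genes to -0.059.

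Bad (ENSMUSG00000024959, chromosome 19, 6941861 to 6951898, plus strand) encodes a sensitizer that survival kinases switch off by phosphorylation. Its libraries had 24.97, 23.2 and 17.4 CPM with saline and 23.4, 17.2 and 16.9 CPM with carnosine. Saline replicate 3 was low and carnosine replicate 1 high for its group, and the groups overlapped. The log2 fold change of -0.20 ± 0.17 (SE) did not pass (adjusted p = 0.41, edgeR; 95% interval -0.60 to 0.21). Exons of Bad share 524 bases with Gpr137 on the opposite strand, which had 144 to 221 counts per library. Whether the counting used strand is unknown here, so reads of the pair may be mixed.

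Bmf (ENSMUSG00000040093, chromosome 2, 118528757 to 118549687, minus strand), whose protein is held at the cytoskeleton until stress frees it, was low in every library. It had 43 to 59 counts, or 3.58, 2.99 and 3.49 CPM with saline and 3.67, 3.68 and 3.32 CPM with carnosine. The groups overlapped and the log2 fold change was 0.087 ± 0.14 (SE; adjusted p = 0.70, edgeR; 95% interval -0.23 to 0.41). Bik (chromosome 15, 83526862 to 83544635) had 4 counts in saline replicate 1, 3 counts in carnosine replicate 1 and 0 in the other libraries. Hrk (chromosome 5, 118164648 to 118189478), known mainly from neurons, had 0 counts in all 6. A count of 0 over a group allows a level of up to 0.0679 CPM with saline and 0.0737 CPM with carnosine (3 counts over the group, counting error only). No difference in Bik or Hrk was detectable at this depth, and neither was tested.

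**Figure D1:**
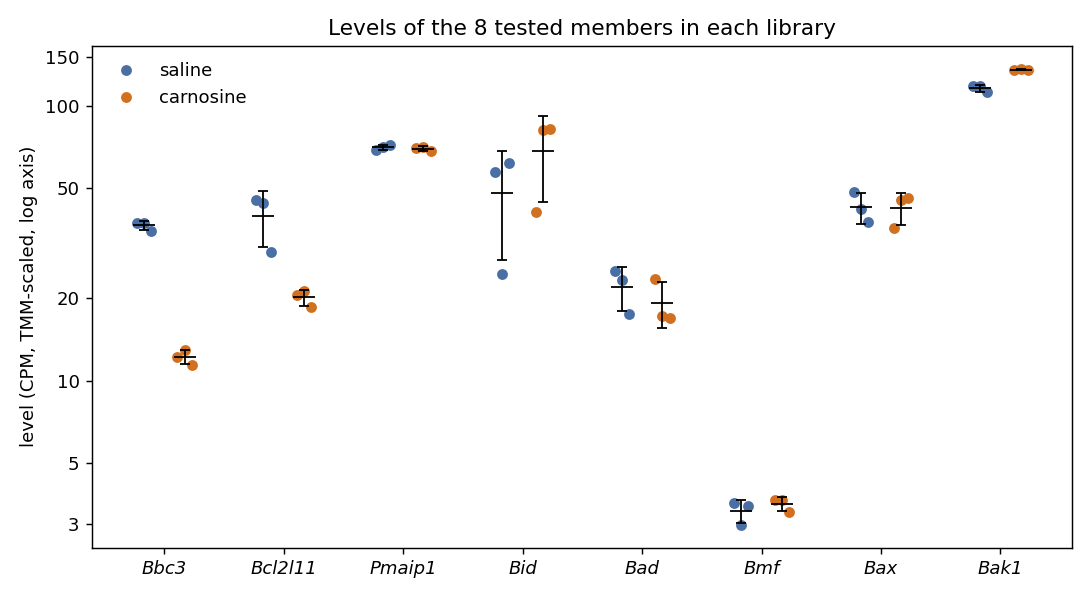
Levels of the 8 tested genes (x axis) in CPM on a log axis, 1 point per library (3 saline in blue, 3 carnosine in orange), with a black bar for the group mean and whiskers for the SD. Bbc3 and Bcl2l11 show carnosine below saline with no overlap and Bak1 the reverse, while in Bid a single low library in each group widens the spread. Bik and Hrk, at or near 0, are left out.

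Of the pore formers, Bak1 passed the test and Bax did not. Bak1 (ENSMUSG00000057789, chromosome 17, 27019810 to 27029009, minus strand), whose protein sits in the mitochondrial membrane already before the signal, had 118, 117 and 112 CPM with saline and 134, 136 and 135 CPM with carnosine. Every carnosine library was above every saline library. The log2 fold change was 0.22 ± 0.032 (SE; 95% interval 0.15 to 0.30; adjusted p = 0.0014, edgeR). Its biological coefficient of variation, 0.048, was at percentile 8.83 of tested genes. Exons of Bak1 share up to 437 bases with Ggnbp1 on the opposite strand, which had 266 counts in carnosine replicate 1 and 31 to 75 in the other libraries. Without carnosine replicate 1 the log2 fold change of Bak1 was 0.23 (adjusted p = 0.0064).

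Bax (ENSMUSG00000003873, chromosome 7, 45461697 to 45466898, minus strand), whose protein moves from the cytosol to the membrane on activation, had 48.4, 41.9 and 37.6 CPM with saline and 35.9, 45.3 and 46.1 CPM with carnosine. The highest and the second lowest library belonged to the saline group, so the groups overlapped fully. The 95% interval of its log2 fold change, -0.30 to 0.28, bounds any change that these libraries could hide, and the adjusted p was 0.96 (edgeR). Its sign turned without saline replicate 1 (0.093) or carnosine replicate 1 (0.098), on FPKM values, and with the correction for GC content and length (0.063). The interval of Bak1 overlaps that of Bax, and the difference between their changes was not tested.

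**Figure D2:**
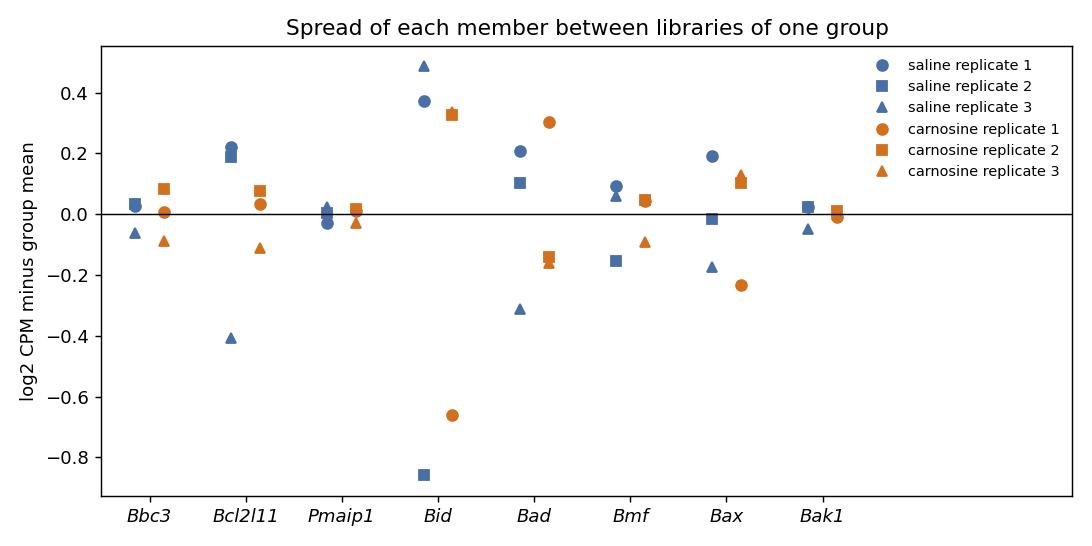
Distance of each library from its group mean in log2 CPM (y axis) for the 8 tested genes (x axis), with colour for the group and marker shape for the replicate number. Bid spans the widest range, Bcl2l11 is pulled down by saline replicate 3, and Pmaip1, Bbc3 and Bak1 stay near 0.

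Scaled per length (deposited FPKM), the order of the genes with saline was Pmaip1, Bak1, Bax, Bbc3, Bid, Bad, Bcl2l11, Bmf, Bik and Hrk. Pmaip1 (26.05 ± 0.462 FPKM) and Bak1 (25.8 ± 0.765 FPKM) did not differ beyond their spread (SD, n = 3 each). Bid, at 8.58 ± 3.67 FPKM, had an SD that reached its neighbours in the order, Bbc3 and Bad. With carnosine Bak1 led at 31.3 ± 0.19 FPKM, followed by Pmaip1 at 26.8 ± 0.493 FPKM and Bax at 16.7 ± 2.24 FPKM. Bid came next at 12.7 ± 4.37 FPKM, with a spread that reached Bax. Bbc3 went from 11.9 ± 0.454 to 4.13 ± 0.252 FPKM and so from above Bad (5.98 ± 1.09 FPKM with saline) to below it (5.45 ± 1.04 FPKM with carnosine). Bcl2l11 went from 2.50 ± 0.571 to 1.31 ± 0.0894 FPKM. The lengths implied by these values are 15525 bases for Bcl2l11 and 3007 for Bbc3. How they were built is not known here. If they count exons that the cells do not use, a gene reads low.

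Summed over the 8 BH3-only genes, FPKM levels were 58.2, 52.2 and 55.9 with saline and 47.4, 53.4 and 51.8 with carnosine, and these ranges overlapped. Bax and Bak1 together gave 44.5, 42.1 and 39.1 FPKM with saline and 45.3, 49.4 and 49.4 FPKM with carnosine, which did not overlap. The anti-apoptotic genes gave 139, 142 and 139 FPKM against 96.9, 99.4 and 99.96 FPKM, so their summed level was lower in every carnosine library. Mcl1 alone made up most of this sum, with 122 ± 2.54 FPKM (saline) and 73.1 ± 1.37 FPKM (carnosine; SD, n = 3 each). The sum thus mainly follows Mcl1 and does not describe the other anti-apoptotic genes. The sums are given as descriptions.

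Of the anti-apoptotic genes, which the BH3-only proteins bind, 7 of 8 were tested, 3 rose and 2 fell (71.4%, against 39.4% of all genes tested), with a median log2 fold change of 0.10. Mcl1, the short-lived partner of NOXA and BIM on which stem cells depend, fell by 0.79 ± 0.026 on the log2 scale (SE), and Bcl2 fell by 0.39 ± 0.05 (SE; edgeR adjusted p = 1.3e-06 and 0.00088). The rises were in 3 near-identical copies, Bcl2a1d (1.88), Bcl2a1b (1.72) and Bcl2a1a (1.61), at mean levels of 0.882 to 4.64 CPM. How reads that match several copies were counted is unknown here, so each value is uncertain and the 3 rises may not be separate. The share of 71.4% and the median rest in part on these copies. Differences between the share of a list and 39.4% were not tested, here or below. Bcl2l1, which encodes BCL-XL, went from 10.6 ± 2.38 (saline) to 11.3 ± 1.93 CPM (carnosine), and Bcl2l2 from 18.96 ± 1.88 to 20.2 ± 0.53 CPM (SD, n = 3 each). Neither passed the test.

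**Figure D3:**
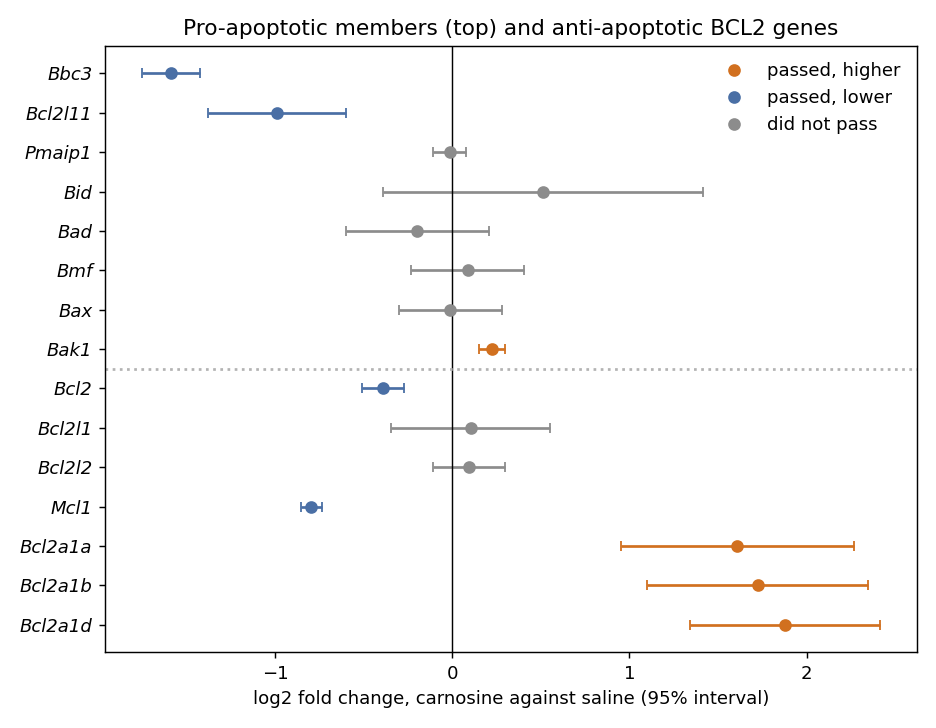
Log2 fold change of carnosine against saline (x axis) with its 95% interval for the 8 pro-apoptotic genes (above the dotted line) and 7 anti-apoptotic genes, coloured by whether edgeR's test passed. Bbc3, Bcl2l11, Mcl1 and Bcl2 lie below 0, Bak1 and the low Bcl2a1 copies above it, and the intervals of the other genes cross 0.

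Of 10 other relatives and partners at the outer membrane, all tested, 2 rose and 1 fell (30.0%, against 39.4% of all genes tested; median log2 fold change 0.045). Bnip3l, a mitophagy receptor, fell by 0.32 ± 0.034 on the log2 scale (SE). Vdac2, the channel that holds BAK in the membrane, rose by 0.11 ± 0.033, and Bcl2l14 rose by 0.57 ± 0.17 at 3.96 to 5.92 CPM. Both calls were marginal. Vdac2 lost its call when any of saline replicates 1 and 2 and carnosine replicates 1 and 2 was left out singly (edgeR adjusted p 0.065 to 0.094), and Bcl2l14 without saline replicate 1 or 3 or carnosine replicate 2 or 3 (0.066 to 0.098). With the GC and length correction Vdac2 was at 0.034 (adjusted p = 0.45) and Bcl2l14 at 0.48 (0.054).

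Downstream of the pore, 5 of 17 genes rose and 3 fell (47.1%, against 39.4% of all genes tested), with a median log2 fold change of 0.092. The inhibitors of apoptosis Birc3 and Birc2 fell by 0.72 ± 0.077 and 0.43 ± 0.048 on the log2 scale (SE). Xiap, a further inhibitor, went the other way without overlap, from 39.2 ± 19.6 (saline) to 78.2 ± 10.6 CPM (carnosine; SD, n = 3 each). It did not pass (adjusted p = 0.069, edgeR). Among the rises were Htra2 (0.39 ± 0.049) and Aifm1 (0.32 ± 0.067), mitochondrial proteins released through the pore, and the initiator Casp9 (0.40 ± 0.095). With the GC and length correction plus the replicate block, Aifm1 (0.21, edgeR adjusted p = 0.05) and Casp9 (0.34, 0.054) lost their calls. Apaf1, the apoptosome scaffold, rose by 0.15 ± 0.04 and Casp8, which cuts BID, by 0.15 ± 0.047 (SE), but these calls were lost without single libraries. For Apaf1 these were saline replicate 2 or 3 and carnosine replicate 1 or 3 (edgeR adjusted p 0.052 to 0.061), for Casp8 saline replicate 2 or 3 and each of the carnosine replicates (0.066 to 0.12). With the GC and length correction Casp8 was at 0.054 (adjusted p = 0.42). Cycs, which encodes cytochrome c, had means of 56.2 ± 2.88 (saline) and 52.5 ± 1.82 CPM (carnosine; SD, n = 3 each) and did not pass (adjusted p = 0.20).

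A further list held genes that control the BH3-only genes or their proteins. Of 26 tested, 4 rose and 16 fell (76.9%, against 39.4% of all genes tested), with a median log2 fold change of -0.27. The difference between these shares was not tested. The pro-survival kinase Pim1, which phosphorylates BAD, fell by 0.81 ± 0.027 on the log2 scale, and its relatives Pim2 and Pim3 fell by 0.58 ± 0.081 and 0.99 ± 0.066 (SE). Jun fell by 0.53 ± 0.019, its kinase Mapk8 by 0.32 ± 0.049, Atf4 by 0.47 ± 0.028 and Ddit3, which encodes the stress factor CHOP, by 0.72 ± 0.072. Mapk9, related to Mapk8, did not pass (log2 fold change -0.072, edgeR adjusted p = 0.25). Rises were those of Myc (0.68 ± 0.034), the kinase Rps6ka1 (0.51 ± 0.035), the checkpoint kinase Chek2 (0.49 ± 0.084) and the p53 inhibitor Mdm4 (0.21 ± 0.03).

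The FOXO genes, known activators of Bcl2l11 and Bbc3, fell as well: Foxo1 by 1.05 ± 0.069, Foxo3 by 0.41 ± 0.029 and Foxo4 by 0.25 ± 0.074 on the log2 scale (SE). The call of Foxo4 (edgeR adjusted p = 0.033) was lost without saline replicate 2 or 3 or any of the carnosine replicates (0.051 to 0.098). Transcripts do not show FOXO activity, which is set by phosphorylation. The part of FOXO in the fall of Bbc3 and Bcl2l11 was not tested. Names in this list beyond Pim1, Jun, Myc, Atf4, Rps6ka1, Mdm4 and Chek2, and Bcl2l1, Bcl2l2, Xiap and Cycs above, were picked after their values were seen.

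Trp53 itself had means of 235 ± 6.47 (saline) and 248 ± 9.49 CPM (carnosine; SD, n = 3 each; adjusted p = 0.14, edgeR), while Mdm2, a target and inhibitor of p53, fell by 0.57 ± 0.04 on the log2 scale. Of 16 p53 targets outside the BCL2 family 3 rose and 6 fell (56.2%, against 39.4% of all genes tested; median log2 fold change -0.23). The largest falls were Plk2 (-2.40 ± 0.064) and Cdkn1a (-2.18 ± 0.062), and Btg2 and Sesn1 fell by 0.81 ± 0.04 and 0.46 ± 0.054 (SE). The rises were Trp53inp1 (0.66 ± 0.18), Rrm2b (0.36 ± 0.099) and Ccng1 (0.14 ± 0.038). Each of these rises missed the threshold without carnosine replicate 1 or 2 (edgeR adjusted p 0.055 to 0.09), and Ccng1 also without saline replicate 1 or 3 (0.087 and 0.081). With the GC and length correction Ccng1 was at 0.0077 (adjusted p = 0.89) and Rrm2b at 0.27 (0.062). With Bbc3 lower and Pmaip1 and Bax not called, the p53 targets among the BH3-only and pore-forming genes split too.

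**Figure D4:**
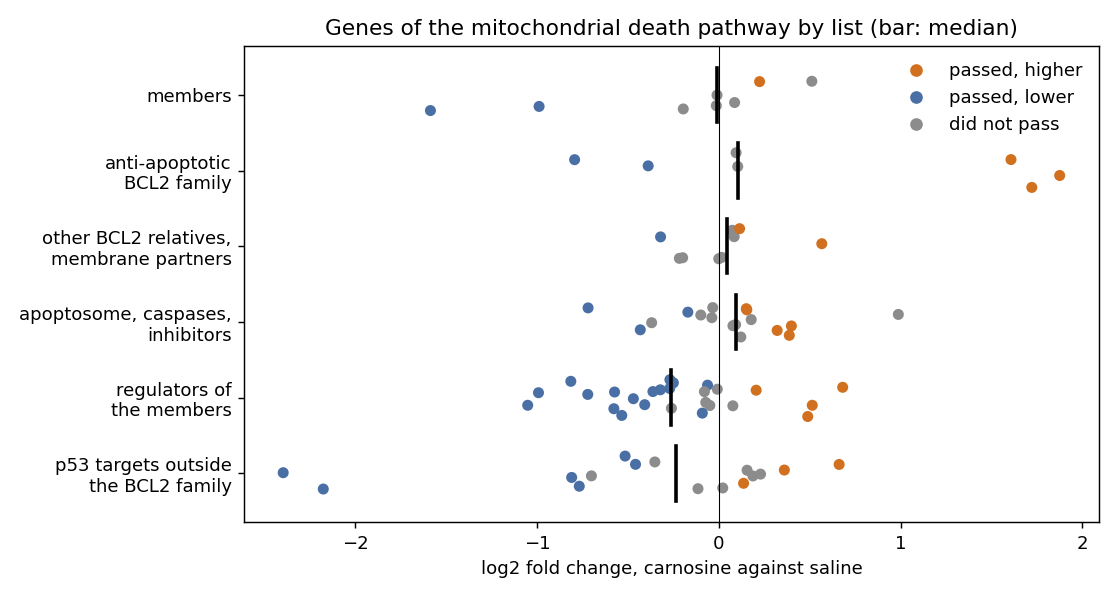
Log2 fold change of carnosine against saline (x axis) for every tested gene of 6 lists (rows), coloured by whether edgeR's test passed, with a bar at each list's median. The 8 pro-apoptotic genes centre on 0 with Bbc3 and Bcl2l11 to the left, and the regulators lie mostly left of 0.

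Some markers of other cell types also passed the test, to be read against 39.4% of all genes tested (19.6% higher and 19.8% lower). The marker lists are short, and the difference between their shares and that of all genes was not tested. In bulk RNA fewer cells of a type and less RNA per cell cannot be told apart. All 8 myeloid progenitor markers rose, from a summed level of 3856 to 3882 CPM with saline to 7947 to 8192 CPM with carnosine. All 7 megakaryocyte markers fell (415 to 437 CPM against 162 to 167 CPM). Of the mature neutrophil markers 3 of 6 tested fell and 1 rose (41.5 to 43.1 against 20.5 to 24.5 CPM). Erythroid markers rose in 4 and fell in 2 of 7 cases (568 to 577 against 691 to 720 CPM). T and NK cell markers rose in 4 of 5 tested cases (86.3 to 89.4 against 125 to 135 CPM). Nkg7 alone made up most of that sum, with means of 81.5 (saline) and 114 CPM (carnosine). Of 4 tested macrophage markers 1 rose and 1 fell (162 to 187 against 132 to 160 CPM). B and plasma cell markers moved in 2 of 9 cases, 1 each way, a smaller share than among all genes tested. Their summed levels were 364 to 375 CPM against 334 to 634 CPM. Jchain, which did not pass, made up most of these sums, with 584, 576 and 281 CPM in carnosine replicates 1 to 3. Of the stem cell and gate markers 4 of 10 fell and 1 rose (1061 to 1101 against 1033 to 1058 CPM). Kit, Cd34 and Flt3 made up most of this sum, so it does not describe the lower markers. On the log2 scale the falls were Mecom (-1.01), Slamf1 (-0.93), Fgd5 (-0.90) and Flt3 (-0.22), and the rise was Kit (0.20). No marker of these lists was at 0 in all 6 libraries. Cd34 and Flt3 transcripts, of surface proteins that the gate required to be absent, had saline means of 329 ± 19 and 210.3 ± 8.64 CPM (SD, n = 3), so the label names the gate. The part of these shifts in the changes of Bbc3, Bcl2l11 and Bak1 was not tested.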

How the data were processed

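Per the labels' protocols, libraries were stranded, paired-end and made from poly-A RNA, and a NovaSeq instrument read them. CASAVA 1.8, HISAT2, StringTie, edgeR and GRCm38 are named, without roles, in the submitters' processing notes. Not given in the sources used here are the annotation, how multiply matching reads were handled and whether counting used strand. The deposited table gives whole, unnormalized counts and FPKM values per library. The deposited FPKM equals the count per gene length and total count (implied lengths agreed between libraries within a ratio of 1.000008 for genes of at least 100 counts in each). Total counts ran from 12602067 to 16866534 per library, and 0 per-sample columns were left unused.

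Counts were tested with edgeR 4.0.16 (R 4.3.3): filterByExpr kept 15533 genes with 99.8% of counts, TMM scaling, quasi-likelihood F-test of carnosine against saline without covariates, Benjamini-Hochberg adjustment at 0.05 over all genes. The SE is the log2 fold change over the square root of F. Levels are means ± SD of 3 libraries. Libraries of a group differed by 1.74 to 2.00 times sampling noise (between groups 11.9 to 13.6), so none was counted as a duplicate. On simulated counts for these 15533 genes, 86 of 100 genes changed 2-fold and 16 of 100 changed 1.3-fold were recovered, and 9 of 111 calls were false. No other genes were changed there, a far smaller share than the 39.4% called in the data, so its rates may differ from those here.

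The members, 5 pathway lists, 8 marker lists and motifs were chosen with earlier results of these data known. Named genes are all members, up to 4 per pathway list by p-value, all movers of a direction with 5 or fewer, and the 5 genes most like the member of smallest p; some of these are not reported here. Alternatives were DESeq2 1.42.0 (size factors, Wald test), upper quartile scaling, no filter or 5 CPM, limma 3.58.1 (voom, and trend on log2(FPKM + 1) or log2(FPKM + 0.1)), a replicate block, a correction for GC content and length (splines, GENCODE M21 longest transcripts), and each library left out. Start windows are RefSeq's (GRCm38.p6).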

Additional observations from a re-analysis of the deposited data

How the results depend on the processing

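Under all 17 alternatives Bbc3 and Bcl2l11 fell and Bak1 rose. The counts of 1 member up and 2 down held except with the GC and length correction, where Pmaip1 (-0.14) made 3 down. Bid, Bad and Bmf kept their sign and did not pass wherever they were tested; Bmf could not be tested with a filter of 5 CPM or on FPKM values. Pmaip1 turned positive on log2(FPKM + 1) (0.041), on log2(FPKM + 0.1) (0.043) and without carnosine replicate 3 (0.0018; range without single libraries -0.027 to 0.0018). Bax turned positive in these FPKM settings (0.046 and 0.048), with the GC and length correction without and with the replicate block (0.063 and 0.065), and without saline replicate 1 (0.093) or carnosine replicate 1 (0.098; range without single libraries -0.093 to 0.098). Bcl2l1 turned negative without saline replicate 2 (-0.064) or carnosine replicate 3 (-0.039; range without single libraries -0.064 to 0.25). The cause was not tested. Of 47 other named genes followed through the alternatives, 34 kept call and direction throughout and 10 lost the call in some setting. Calls over all genes, 3038 higher and 3077 lower, became 2375 and 3904 with the GC and length correction and 3387 and 2156 on log2(FPKM + 1). Whether the replicate numbers pair the libraries is not known here. Deviations of saline and carnosine libraries of the same number correlated at 0.0079, 0.027 and 0.021 over all tested genes, which does not settle it. With the replicate block 5231 genes were called, with no member's call changed, while Vdac2, Bcl2l14 and Foxo4 lost theirs. Leaving out single libraries gave 5082 to 5317 calls. Depth limits Bik and Hrk, and 3 libraries per group limit Bid, Bad and Bax. Trp53 passed as higher on log2(FPKM + 1) and log2(FPKM + 0.1) (adjusted p = 0.036 and 0.037, limma-trend) and without carnosine replicate 2 (0.05, edgeR), and Cycs passed as lower with the GC and length correction, alone (adjusted p = 0.012, edgeR) or with the replicate block (0.022).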
